A study of Mus musculus with 6 samples.

Results

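The genes described here make cholesterol and fatty acids and are targets of the sterol regulatory element-binding proteins (SREBPs), or encode those proteins. They were chosen by name from a list of 41 symbols, of which 1 (Sc4mol) is an older name of another on the list (Msmo1), so that 40 genes were sought. Probes annotated with a single symbol were found for 25 of them, among 8588 genes measured, and all 25 passed the filter on dim values. Where a gene had several probes, which was so only for Fasn, the probe with the highest mean over the arrays was used. The other 15 genes, which include Hmgcs1, Idi1, Lss, Insig1 and Acaca, were not analysed here.

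The 2T3 line, a mouse pre-osteoblast line immortalised with a viral T antigen and used as a model of bone-forming cells, was compared in 2 conditions, with 3 samples each and 1 array per sample. In simulated microgravity, cells in OptiCells, closed cassettes with gas-permeable walls, were turned on a Random Positioning Machine, a device that keeps turning a culture so that no direction of gravity persists. Static control cells stayed still in the same kind of cassette, and no genotype, drug or time point differs between the groups in the labels. Neither the length of exposure nor the culture medium and its lipid content is stated in the labels. All samples come from 1 cell line, and the labels do not say that they came from separate cultures, so the p-values may reflect technical spread alone.

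Cholesterol is built from acetyl-CoA through mevalonate, farnesyl diphosphate, squalene and lanosterol, and fatty acids are built from the same acetyl-CoA by carboxylation, repeated condensation, and then desaturation and elongation. SREBPs are membrane-bound transcription factors held in the endoplasmic reticulum when sterols are plentiful, by Insig proteins acting on the escort protein Scap. When sterols run low they are carried to the Golgi, cut, and released to switch on these genes, with Srebf2 chiefly tied to sterol synthesis and a short form made from Srebf1 to fatty acid synthesis. In osteoblasts the pathway supplies membrane sterol and the isoprenoids that anchor small GTPases, and farnesyl diphosphate synthase is the target of nitrogen-containing bisphosphonate drugs used against bone loss.

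Sterol synthesis genes had lower values in simulated microgravity at nearly every measured step. Of the 10 genes of fatty acid and glycerolipid synthesis, 7 overlapped between the groups. The other 3 (30%) were lower without overlap, against 8.07% of all genes. Of the 25 genes, 20 (80%) had a lower mean in simulated microgravity, against 43.4% of all 8588 genes. Among the 20 are Srebf1, which was near the floor, and Acly and Fads2, whose sign turned under some other settings. In 14 of the 25 (56%) every microgravity array lay below every static array, against 8.07% of all genes, and in 0 did every microgravity array lie above. The median log2 change was -0.51, against 0.05 over all genes and -0.33 when static 2 was left out, and it was -0.92 over the 13 sterol synthesis genes and -0.11 over the 10 genes of fatty acid and glycerolipid synthesis. At least 2-fold lower were 7 of 25 (28%), against 1.28% of all genes. In these bulk samples fewer expressing cells and less RNA per cell cannot be told apart.

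No single gene of the 25 passed limma's test at an adjusted p under 0.05 over all 10146 probes (0 called, against 0.276% of all probes, and 0 of all probes when any 1 array was left out). At an unadjusted p under 0.05, 13 were lower and 0 higher, against 5.69% of all genes lower and 5.79% higher. The smallest adjusted p-values were those of Nsdhl (limma adjusted p = 0.0559), Cyp51 (0.0607), Scd2 (0.0658), Fdps (0.0817) and Tm7sf2 (0.0915). The number of these genes past the threshold was 2 to 5 with 6 of 16 other settings and 0 with the other 10, among them every setting that left out an array. Intensities are given relative to the median of the array, so that 1 is the median probe. Fold changes are ratios of geometric means, simulated microgravity over static.

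**Figure D1:**
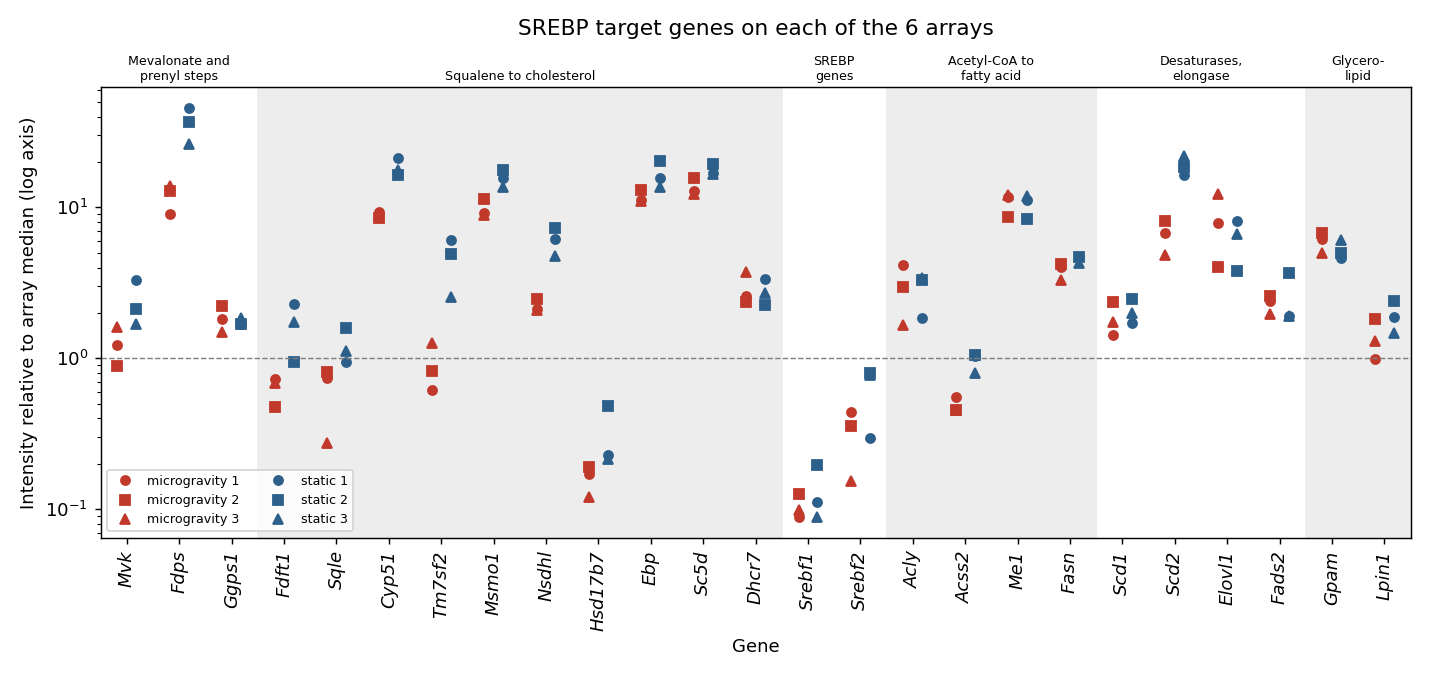
Intensity relative to the array median (log axis) of the 25 genes on each array, microgravity on the left and static on the right of each gene, with the replicate number as the symbol and a dashed line at the array median. Fdps, Cyp51, Tm7sf2, Nsdhl and Scd2 show the widest gaps between the groups, while Ggps1, Dhcr7, Me1 and Scd1 overlap.

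Because these genes share a family of regulators, their promoters were read for 4 fixed motifs on both strands. Each window runs from 250 bases before to 50 after a gene's start, from RefSeq on the mouse build GRCm38.p6. Windows were found for 20 of the 25 genes, and Fdps, Fdft1, Sqle, Scd1 and Scd2 had no entry. Windows of 7 genes are shown, 6 whose groups did not overlap (the 3 with the smallest p that had a window, then Msmo1, Mvk and Acss2) and Ggps1, whose groups did. Nsdhl lies at chrX:72918271-72918570, plus strand; Cyp51 at chr5:4104648-4104947, minus strand; Tm7sf2 at chr19:6067801-6068100, minus strand. Msmo1 lies at chr8:64733529-64733828, minus strand; Mvk at chr5:114444019-114444318, plus strand; Acss2 at chr2:155517793-155518092, plus strand. Ggps1 lies at chr13:14063439-14063738, minus strand. Capitals mark CCAAT, the box bound by NF-Y, a known partner of SREBPs, or ATTGG, the same box on the other strand.
Nsdhl: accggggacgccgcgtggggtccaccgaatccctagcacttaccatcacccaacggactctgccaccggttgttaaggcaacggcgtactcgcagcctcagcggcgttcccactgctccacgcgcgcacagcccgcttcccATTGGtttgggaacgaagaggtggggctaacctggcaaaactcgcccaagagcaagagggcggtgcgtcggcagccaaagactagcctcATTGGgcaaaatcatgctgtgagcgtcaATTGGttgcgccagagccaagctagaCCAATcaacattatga
Cyp51: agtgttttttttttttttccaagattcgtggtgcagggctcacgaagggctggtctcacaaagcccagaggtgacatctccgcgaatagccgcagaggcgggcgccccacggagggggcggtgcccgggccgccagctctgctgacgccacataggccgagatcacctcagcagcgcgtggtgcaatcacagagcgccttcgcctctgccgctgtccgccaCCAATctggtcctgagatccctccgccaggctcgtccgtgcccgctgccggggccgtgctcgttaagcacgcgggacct
Tm7sf2: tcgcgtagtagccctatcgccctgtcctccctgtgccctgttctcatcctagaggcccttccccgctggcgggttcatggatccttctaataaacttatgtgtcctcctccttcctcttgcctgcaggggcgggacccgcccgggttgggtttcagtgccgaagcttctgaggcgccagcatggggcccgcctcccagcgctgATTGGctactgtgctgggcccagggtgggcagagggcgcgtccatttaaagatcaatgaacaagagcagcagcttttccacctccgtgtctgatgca
Msmo1: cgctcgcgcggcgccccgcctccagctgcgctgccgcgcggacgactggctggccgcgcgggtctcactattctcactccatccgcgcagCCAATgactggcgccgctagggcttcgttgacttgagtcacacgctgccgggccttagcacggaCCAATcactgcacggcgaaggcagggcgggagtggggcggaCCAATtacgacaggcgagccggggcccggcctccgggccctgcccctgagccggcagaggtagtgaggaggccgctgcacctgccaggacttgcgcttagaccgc
Mvk: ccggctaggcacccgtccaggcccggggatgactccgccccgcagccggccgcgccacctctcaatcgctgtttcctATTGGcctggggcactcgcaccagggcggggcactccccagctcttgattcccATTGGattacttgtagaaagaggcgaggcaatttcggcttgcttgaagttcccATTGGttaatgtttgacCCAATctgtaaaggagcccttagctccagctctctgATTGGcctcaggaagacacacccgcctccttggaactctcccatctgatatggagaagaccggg
Acss2: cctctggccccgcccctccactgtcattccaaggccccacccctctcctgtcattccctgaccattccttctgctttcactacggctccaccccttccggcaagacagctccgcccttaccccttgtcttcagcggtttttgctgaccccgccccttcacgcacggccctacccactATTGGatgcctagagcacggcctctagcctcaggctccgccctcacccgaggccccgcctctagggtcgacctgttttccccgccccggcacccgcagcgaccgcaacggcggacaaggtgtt
Ggps1: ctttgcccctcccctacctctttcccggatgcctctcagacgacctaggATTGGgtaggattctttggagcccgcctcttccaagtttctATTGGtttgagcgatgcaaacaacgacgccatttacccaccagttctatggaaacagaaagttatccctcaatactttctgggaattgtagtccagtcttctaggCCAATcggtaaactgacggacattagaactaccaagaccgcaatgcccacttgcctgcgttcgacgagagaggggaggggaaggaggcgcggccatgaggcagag

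A CCAAT box lay in a window of 18 of the 20 genes (90%), against 42.5% of the 6874 tested genes with a window. It was present in 10 of 10 genes whose groups did not overlap and in 8 of 10 whose groups did, Fads2 and Lpin1 being without. Some of the latter had several windows. By window the counts were 10 of 10 (100%) and 9 of 17 (52.9%), against 37.1% of windows of all tested genes. The Mvk window held 5, that of Nsdhl 4, those of Msmo1 and Ggps1 3 each, and those of Cyp51, Tm7sf2 and Acss2 1 each. Ggps1, whose groups overlapped, held as many boxes as Msmo1, whose groups did not. Of windows of genes whose groups did not overlap, 6 of 10 (60%) held 2 or more boxes. Of windows of genes whose groups did overlap, 2 of 17 (11.8%) did so, against 13.1% of windows of all tested genes. The difference was not tested. The Sp1 motif GGGCGG lay in a window of 17 of the 20 genes (85%), against 61.6% of the tested genes, and the E-box CACGTG in 3 of 20 (15%), those of Hsd17b7, Sc5d and Dhcr7, against 11.6%. The strict sterol regulatory element core TCACNCCAC was found in 0 of 20, against 1.73% of the tested genes, and many known elements depart from these letters. Of the 36 CCAAT matches in these windows, 1 shared bases with another of the motifs. Matches describe the letters only.

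In the mevalonate and prenyl steps, Fdps stood out. Fdps, which makes farnesyl diphosphate, had 9.10, 12.8 and 13.8 times the array median in microgravity 1, 2 and 3, against 45.6, 36.8 and 26.5 in static 1, 2 and 3. The groups were far apart, the lowest static array lying 1.92 times above the highest microgravity array, although static arrays themselves ranged widely. Its mean was 11.9 ± 2.48 in simulated microgravity and 36.3 ± 9.58 in static cells (SD, n = 3 each), a 3.02-fold lower level (log2 change -1.60, SE 0.25, limma adjusted p = 0.0817). Mvk, the kinase that phosphorylates mevalonate, had 1.23, 0.886 and 1.61 in simulated microgravity, against 3.31, 2.12 and 1.68 in static cells. The groups nearly touched, with microgravity 3 just under static 3 (log2 change -0.92, SE 0.33, limma adjusted p = 0.371).

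Ggps1, which lengthens farnesyl to geranylgeranyl diphosphate for protein prenylation, had 1.83, 2.22 and 1.49 in simulated microgravity and 1.70, 1.69 and 1.85 in static cells. Its groups overlapped on both sides, and its log2 change of 0.06 had a 95% interval of -0.42 to 0.54, against -2.20 to -0.99 for Fdps. The intervals of these neighbouring enzymes did not overlap, but the difference between their changes was not tested.

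From squalene to cholesterol 10 genes were measured, and in 9 of them the groups did not overlap, all lower in simulated microgravity, against 8.07% of all genes. Fdft1, squalene synthase, which commits farnesyl diphosphate to sterols, had 0.726, 0.479 and 0.690 in simulated microgravity, against 2.31, 0.953 and 1.74 in static cells. Microgravity arrays all lay below the array median, and static 2 came closest to them (log2 change -1.33, SE 0.37, limma adjusted p = 0.228). Sqle, the squalene epoxidase and a flux-controlling step, had 0.744, 0.813 and 0.273, against 0.943, 1.60 and 1.12. Microgravity 3 was far below its companions here, and the log2 change of -1.12 (95% interval -2.22 to -0.02) became -0.62 without it.

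Cyp51, the cytochrome P450 that demethylates lanosterol, was the most even of the group. It had 9.29, 8.54 and 8.98 in simulated microgravity, against 21.1, 16.3 and 17.7 in static cells. Means were 8.94 ± 0.378 and 18.3 ± 2.48, a 2.04-fold lower level in simulated microgravity (log2 change -1.03, SE 0.14, limma adjusted p = 0.0607). Tm7sf2, the sterol reductase that acts on the product of Cyp51, had 0.617, 0.826 and 1.27 in simulated microgravity, against 6.09, 4.90 and 2.56 in static cells. The static arrays spread more than 2-fold, yet the lowest of them was 2.02 times the highest microgravity array. Its level was lower by a factor of 4.91 (log2 change -2.30, SE 0.40, limma adjusted p = 0.0915), and it ranked 5 of 8588 genes by log2 change, counted from the lowest.

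Methyl groups are then taken off the sterol ring by Msmo1, Nsdhl and Hsd17b7 acting together. Nsdhl, the dehydrogenase of this group, had 2.12, 2.49 and 2.10 in simulated microgravity, against 6.15, 7.31 and 4.80 in static cells. All microgravity values lay close together and below the static ones, at 2.23 ± 0.219 against 6.09 ± 1.26, a 2.69-fold lower level (log2 change -1.43, SE 0.19, limma adjusted p = 0.0559). Msmo1, the methyl oxidase, had 9.18, 11.3 and 8.86, against 15.6, 17.8 and 13.6, a smaller shift with no overlap (log2 change -0.68, SE 0.17, limma adjusted p = 0.180). Hsd17b7, the ketoreductase, was dim, at 0.171, 0.192 and 0.121, against 0.230, 0.487 and 0.217. Static 2 was the highest of these by far, and the log2 change of -0.87 (95% interval -1.73 to -0.01) became -0.50 without it.

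The last steps had small differences. Ebp, the sterol isomerase, had 11.2, 13.0 and 11.1 in simulated microgravity, against 15.7, 20.4 and 13.7 in static cells (log2 change -0.48, SE 0.18, limma adjusted p = 0.400). Sc5d, the sterol desaturase that follows it, had 12.8, 15.7 and 12.3, against 17.0, 19.4 and 16.6 (log2 change -0.38, SE 0.15, limma adjusted p = 0.421). In both the highest microgravity array reached to within a few percent of the lowest static one. Dhcr7, the reductase that turns the final precursor into cholesterol, had 2.60, 2.36 and 3.75, against 3.35, 2.25 and 2.71. Its groups overlapped, with a log2 change of 0.06 and a 95% interval of -0.52 to 0.63, which leaves out a 2-fold decrease.

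**Figure D2:**
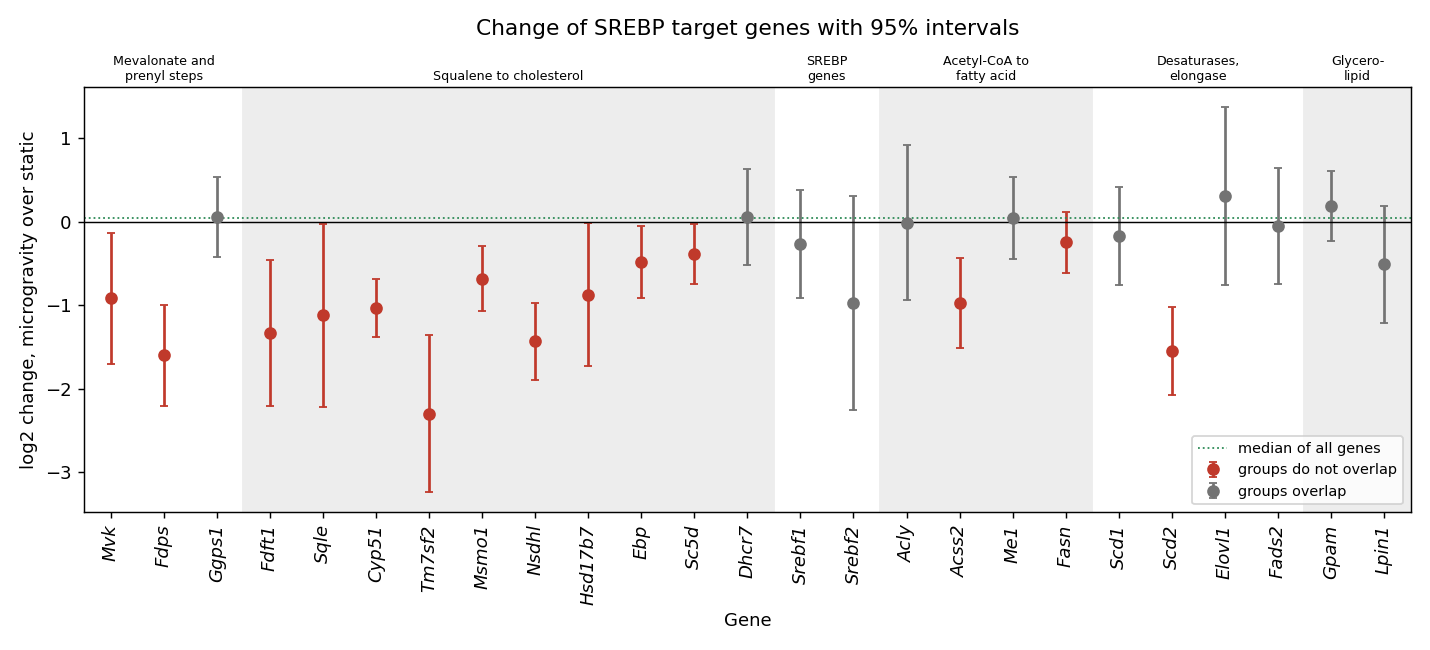
Log2 change, microgravity over static, of each of the 25 genes with its 95% interval from limma, in pathway order, red where the groups do not overlap and grey where they do; the dotted line is the median of all genes (0.05). The 11 sterol genes in red range from -2.30 (Tm7sf2) to -0.38 (Sc5d), and Acss2, Fasn and Scd2 are the red points among the fatty acid genes.

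The genes for the SREBPs themselves were dim. Srebf2 had 0.442, 0.355 and 0.155 in simulated microgravity, against 0.297, 0.805 and 0.772 in static cells. Microgravity 1 and 2 lay above static 1, so the groups overlapped, with a log2 change of -0.97 (95% interval -2.26 to 0.31). With 1 array left out, this change ran from -1.44 (without static 1) to -0.52 (without microgravity 3). Srebf1 had 0.0892, 0.127 and 0.0986, against 0.112, 0.197 and 0.0887, with 3 of 6 arrays under the floor of 0.1, so no direction is given for it. SREBP activity is set largely by cleavage of the protein, which these arrays do not measure.

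Entry into fatty acid synthesis was uneven. Acss2, which makes acetyl-CoA from acetate, had 0.553, 0.453 and 0.457 in simulated microgravity, against 1.03, 1.06 and 0.796 in static cells. The groups were clearly apart, at 0.487 ± 0.0564 against 0.961 ± 0.143 (log2 change -0.97, SE 0.23, limma adjusted p = 0.162). Acly, which makes acetyl-CoA from citrate, had 4.13, 2.98 and 1.67, against 1.86, 3.31 and 3.41, with full overlap and a log2 change of -0.01 (95% interval -0.93 to 0.92). Me1, the malic enzyme that supplies NADPH, had 11.7, 8.60 and 12.2, against 11.2, 8.37 and 11.9. In both conditions the array numbered 2 was lowest for Me1, and the groups overlapped (log2 change 0.05, 95% interval -0.44 to 0.53).

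Fasn, the fatty acid synthase, had 4.02, 4.24 and 3.29 in simulated microgravity, against 4.66, 4.68 and 4.28 in static cells. These groups only just failed to touch, and the log2 change of -0.24 (95% interval -0.61 to 0.12, limma adjusted p = 0.722) became -0.14 without microgravity 3. Its second, dimmer probe had 0.601, 0.615 and 0.224, against 0.273, 0.911 and 0.596, with overlap and a like log2 change of -0.28 (95% interval -1.64 to 1.08).

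The stearoyl-CoA desaturases, which put the first double bond into saturated fatty acids, differed from each other. Scd2 had 6.81, 8.10 and 4.82 in simulated microgravity, against 16.3, 18.6 and 21.8 in static cells. The groups were well separated, by a factor of 2.02 at their nearest, with means of 6.57 ± 1.65 against 18.9 ± 2.74, a 2.92-fold lower level (log2 change -1.55, SE 0.22, limma adjusted p = 0.0658). Scd1 had 1.44, 2.37 and 1.75, against 1.71, 2.48 and 2.01, with overlap and a log2 change of -0.17 (95% interval -0.76 to 0.42). The intervals of the paralogs did not overlap, but the difference was not tested, and neither was how well the probes of these related genes tell them apart.

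Other enzymes of chain length and unsaturation showed no separation. Elovl1, which elongates very long chains, had 7.94, 4.06 and 12.2, against 8.17, 3.81 and 6.64 in static cells, and the arrays numbered 2 were lowest in both groups. Fads2, the first desaturase of polyunsaturated fatty acid synthesis, had 2.40, 2.60 and 1.96, against 1.91, 3.68 and 1.92. Their log2 changes were 0.31 (95% interval -0.76 to 1.38) and -0.05 (95% interval -0.74 to 0.65). Among the genes that start glycerolipid synthesis, Gpam, the mitochondrial glycerol-phosphate acyltransferase, had a log2 change of 0.19 (95% interval -0.23 to 0.61). Lpin1, the phosphatidate phosphatase, had 0.984, 1.82 and 1.30, against 1.88, 2.40 and 1.48, with microgravity 2 inside the static range and a log2 change of -0.51 (95% interval -1.21 to 0.20), which became -0.29 without microgravity 1 and -0.33 without static 2.

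The arrays of a group did not behave alike across these genes. Relative to each gene's static mean, the median log2 value of the 13 sterol genes was -0.76, -0.59 and -1.02 on microgravity 1, 2 and 3, against 0.03, 0.14 and -0.19 on static 1, 2 and 3. Every microgravity array was therefore lower than every static array, with microgravity 3 the lowest and static 3 the lowest of the static arrays. For the 10 fatty acid and glycerolipid genes these medians were -0.08, -0.07 and -0.37, against -0.09, 0.10 and 0.07, and the groups overlapped. Over all genes they were -0.04, 0.09 and 0.02, against 0.00, 0.04 and -0.03. Of the 14 genes whose groups did not overlap, 10 had their lowest static value on static 3, and 8 had their lowest microgravity value on microgravity 3.

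**Figure D3:**
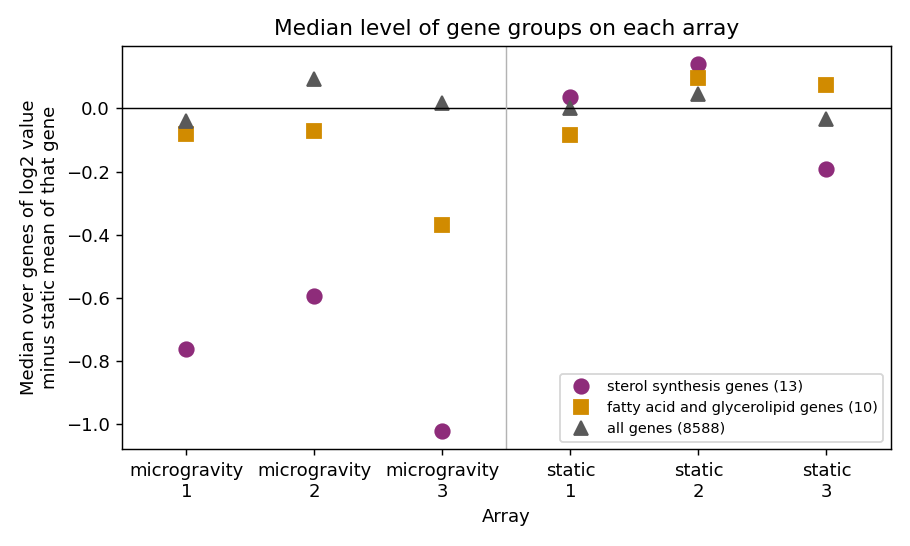
For each array, the median over genes of the log2 value minus that gene's static mean, for sterol synthesis genes (circles), fatty acid and glycerolipid genes (squares) and all genes (triangles). Sterol genes lie between -1.02 and -0.59 on the microgravity arrays and between -0.19 and 0.14 on the static arrays.

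Genes around the pathway gave a background for these values. A list of other genes of sterol synthesis, uptake, trafficking and storage had 7 measured. Of these, 0 passed the threshold in either direction, and the median log2 change was 0.17. Without overlap were 1 higher (Vldlr) and 1 lower (Npc2), against 16.6% of all genes in either direction. As only 0.276% of all probes passed, 0 calls in lists as short as these say little. Vldlr, a receptor for lipoproteins, had 6.48, 6.37 and 5.43 in simulated microgravity, against 2.65, 4.11 and 4.65 in static cells, higher with no overlap (log2 change 0.71, SE 0.23, limma adjusted p = 0.319). Npc2, which hands cholesterol to Npc1 in lysosomes, had 38.9, 48.7 and 54.9, against 66.4, 68.6 and 58.7 (log2 change -0.45, SE 0.18, limma adjusted p = 0.431). Npc1 itself and the endocytic receptor Lrp1 had log2 changes of 0.58 and 0.77, with overlapping groups.

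Sterol efflux and liver X receptor genes had a median log2 change of -0.01 over 10 measured. Of these, 0 passed the threshold, against 0.276% of all probes, and 0 were without overlap, against 16.6% of all genes in either direction. Pltp, Abca2, Ch25h and Rxra, those with the smallest p, had log2 changes of -0.32, -0.51, 0.21 and -0.57. Of 8 genes that use isoprenoids, 1 had a lower mean in simulated microgravity, against 43.4% of all genes. The median log2 change was 0.35, and 0 passed, against 0.276% of all probes. Groups did not overlap in 3 of the 8 (Rabggtb, Rabggta and Dpagt1), all higher, against 16.6% of all genes in either direction. Rabggtb, a subunit of the enzyme that prenylates Rab proteins, had 33.2, 30.0 and 43.1, against 27.8, 22.0 and 24.0 (log2 change 0.51, SE 0.19, limma adjusted p = 0.378). Rabggta, the other subunit, had a log2 change of 0.46, and Dpagt1, which starts glycan assembly on dolichol, 0.54, both without overlap, while Rce1 had 0.30.

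Fatty acid uptake and storage (17 measured, median log2 change -0.03) and oxidation (16 measured, median -0.08) also had 0 genes past the threshold, against 0.276% of all probes. Without overlap were 3 lower (Lpl, Fabp3, Plin3) and 1 higher (Dgat2) of the 17, and 2 lower (Acaa2, Hadh) of the 16. Over all genes 16.6% were without overlap in either direction. Lpl, the lipase that frees fatty acids from lipoproteins, had 8.64, 11.6 and 9.39 in simulated microgravity, against 17.5, 16.0 and 17.2 in static cells, clearly apart (log2 change -0.78, SE 0.15, limma adjusted p = 0.109). Fabp3, a fatty acid carrier, and Plin3, a lipid droplet protein, had log2 changes of -0.59 and -0.51, and Dgat2, which completes triglycerides, 0.52. Acaa2, the mitochondrial thiolase, had 3.59, 2.55 and 4.47, against 6.53, 5.87 and 5.84 (log2 change -0.82, SE 0.22, limma adjusted p = 0.217). Hadh, Acadvl and Ppard had log2 changes of -0.35, -0.40 and 0.28.

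**Figure D4:**
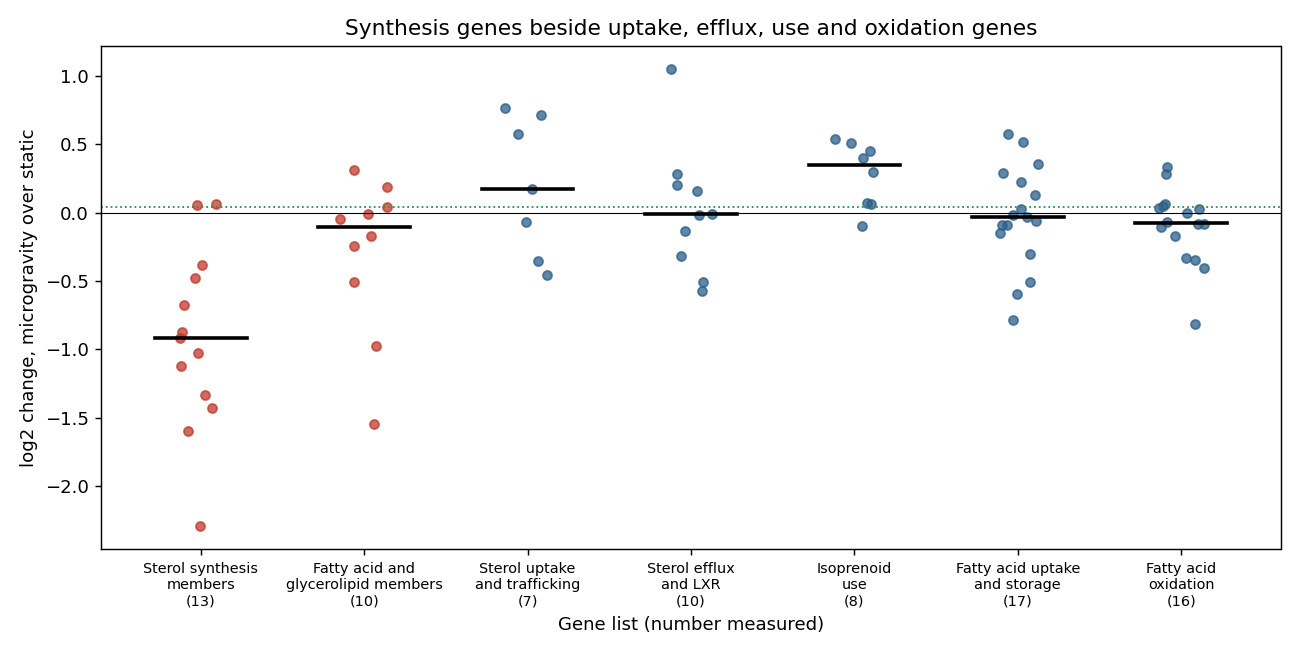
Log2 change, microgravity over static, of each measured gene in the synthesis groups (red) and in surrounding lists (blue), with the median of each as a black bar and the median of all genes as a dotted line. Medians are -0.92 for the 13 sterol synthesis genes, -0.11 for the 10 fatty acid and glycerolipid genes, and between -0.08 and 0.35 for the other lists.

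Of 5 marker lists, the osteoblast list had genes past the threshold. Of its 11 measured markers 3 passed, all lower, against 0.187% of all probes called lower, and the summed level of the 11 was 223.03 to 286 in simulated microgravity, against 407 to 534 in static cells. Alpl, the alkaline phosphatase of early osteoblasts, had a log2 change of -2.25 (limma adjusted p = 0.0295) and Pth1r, the parathyroid hormone receptor, -2.34 (limma adjusted p = 0.0194). Bright genes carry this sum, the highest group mean of any of these markers being 201. Col1a1 was bright in both groups, with overlap and a log2 change of -0.71 (limma adjusted p = 0.631). Bone sialoprotein (Ibsp), a late marker, was dim in both, at 0.220 ± 0.0616 and 0.230 ± 0.0673. Over the 11 osteoblast markers the median log2 change was -0.71, and 6 (54.5%) were lower without overlap, against 8.07% of all genes. For the 25 genes of the SREBP list these were -0.51 and 56%, so a decrease of this size was not particular to them. The part of the osteoblast markers in the sterol values was not tested. Adipocyte markers, relevant because such precursors can store fat, summed to 27.2 to 30.2 in simulated microgravity, against 25.2 to 34.6 in static cells over 5 measured, nearly all of it Fabp4. Adipoq was near the floor, at 0.10 ± 0.046 and 0.11 ± 0.041, and Pparg had a log2 change of -0.42 (limma adjusted p = 0.580). Chondrocyte, skeletal muscle and macrophage or blood markers (8, 11 and 8 measured) had overlapping sums and 0 past the threshold, against 0.276% of all probes.

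**Figure D5:**
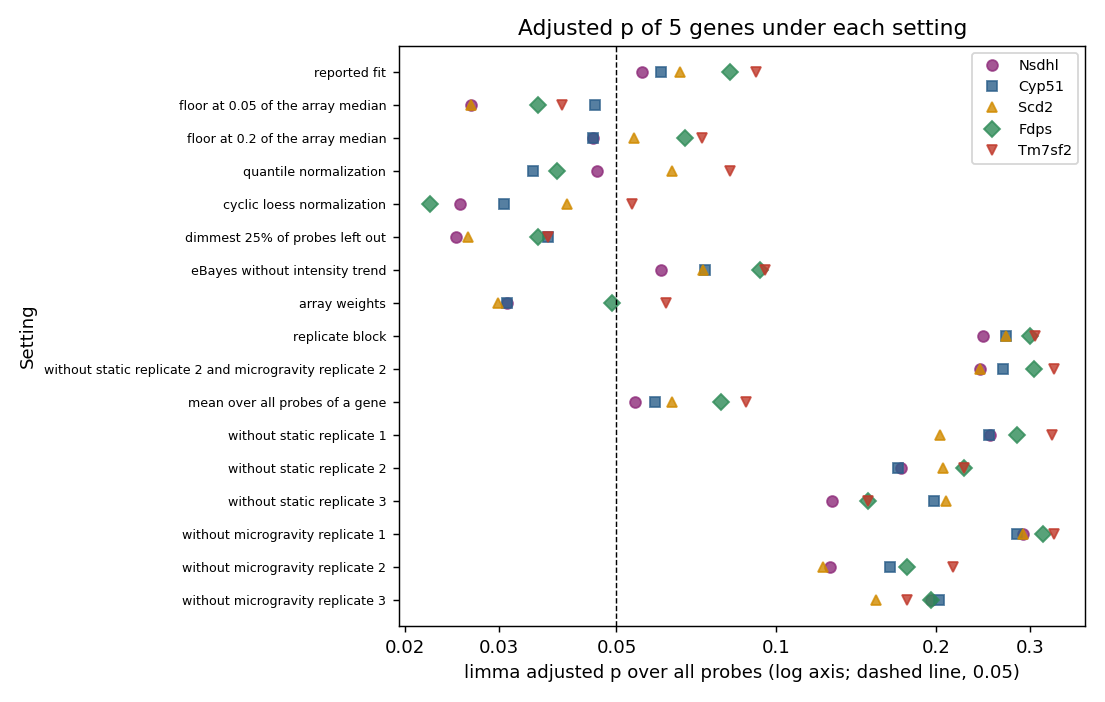
Limma adjusted p over all probes (log axis) of Nsdhl, Cyp51, Scd2, Fdps and Tm7sf2 in the reported fit and under each of 16 other settings, with a dashed line at 0.05. Values reach 0.0223 with cyclic loess normalization (Fdps) and 0.334 with microgravity 2 and static 2 both left out (Tm7sf2).

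Nsdhl and Cyp51 passed the threshold in 6 of 16 settings each, Fdps in 5, Scd2 in 4 and Tm7sf2 in 2, and in none (0) of the 16 did any other of the 25 genes pass. The log2 changes of these named genes lay between -2.66 (Tm7sf2) and -0.93 (Cyp51) over the 16. As their groups did not overlap, leaving out arrays could not turn their sign. Arrays microgravity 2 and static 2 held fewer values at the floor, 6.44% and 9.16%, against 17.1% to 19.8% on the other arrays. Without both, the median log2 change of the 25 genes was -0.56.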

How the data were processed

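Total RNA of 6 samples of 2T3 cells was measured on expression arrays, 3 from simulated microgravity and 3 static, grouped by their titles. The deposited values are linear intensities of 10500 probes, and no source used here states how the authors made them from scanner output. Array medians differed little (0.908 to 0.927), so scaling between arrays was taken as done, which cannot be checked. Values were expressed relative to the median of their array, those under 0.1 were raised to 0.1, which understates changes of dim genes, and log2 was taken. Left out were 354 probes that sat at that floor throughout or had under 2 values in a group. The other 10146 were fitted with limma 3.58.1 in R 4.3.3 (lmFit, eBayes with intensity trend, 2-sided, Benjamini-Hochberg over all probes, threshold 0.05). The fit was also run on simulated data with independent noise, which cannot show how it performs on arrays that deviate together. SE and 95% intervals are limma's. Symbols came from GEO's platform annotation, 8983 probes having 1 symbol, 1 several and 1516 none.

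The genes, lists and tests were chosen with earlier results of these data known. Every measured gene of the SREBP list is named, up to 4 with the smallest p of each surrounding list, and a fixed set of markers. Alternatives were other floors, quantile and cyclic loess normalization, a filter on dim probes, no trend, array weights, the replicate number as a block, averaged probes and left-out arrays. Of the same-numbered arrays only those numbered 2 deviated together, so no pairing was used in the reported fit.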

Additional observations from a re-analysis of the deposited data

How the results depend on the processing

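The number of limma calls depended on the settings. All 14 genes whose groups did not overlap kept a negative log2 change under all 16 alternatives. Without overlap, left-out or weighted arrays, a block or another floor cannot turn the sign, so for these it was fixed in advance. Of the 25 genes 0 passed in the reported fit, with 28 of all probes. These became 5 and 53 with a floor at 0.05 of the array median, 3 and 54 under quantile normalization, 4 and 56 under cyclic loess, 5 and 59 without the dimmest 25% of probes, 4 and 115 under array weights, and 2 genes with a floor at 0.2. Probes were 0 without microgravity 2 and static 2 together, and 0 with any 1 array left out (0 to 0 over the 6). The cause of these differences was not tested. With 1 array left out, the median log2 change of the 25 genes ran from -0.69 (without microgravity 2) to -0.33 (without static 2), and 19 to 21 genes had lower means under all alternatives. Genes with a small change turned sign. Me1 was -0.0069 with quantile and -0.014 with cyclic loess normalization. With array weights Dhcr7 was -0.0036, Acly 0.17 and Fads2 0.12, and without both arrays numbered 2 Ggps1 was -0.10, Acly 0.064 and Fads2 0.18. Over the 6 fits with 1 array left out, log2 changes ran from -0.30 to 0.35 for Acly, from -0.11 to 0.20 for Me1, from -0.21 to 0.27 for Fads2, from -0.14 to 0.21 for Dhcr7, from -0.36 to -0.0020 for Scd1, from 0.095 to 0.31 for Gpam, from -0.059 to 0.74 for Elovl1, from -0.082 to 0.21 for Ggps1, and from -0.46 to 0.033 for Srebf1.

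With the replicate number as a block 0 probes passed, and the smallest adjusted p of the 25 genes was 0.245 (Nsdhl), against 0.0559 without it. The numbers did not pair the samples throughout, as only the arrays numbered 2 deviated together. Deviations from the group mean of same-numbered arrays correlated across probes at -0.21, 0.45 and -0.18 for numbers 1, 2 and 3, and 0.66 was the highest between other arrays, microgravity 3 and static 1. No detection calls were used, so how far dim genes such as Srebf1, Srebf2 and Hsd17b7 lie above background is unknown, and 3 arrays per group limit the precision.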
